A study of Mus musculus with 12 samples.

Results

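The Hox genes encode homeodomain transcription factors that give cells their position along the body axis, and mammals carry them in 4 clusters. The members are the 39 mouse genes of these clusters (Hoxa on chromosome 6, Hoxb on chromosome 11, Hoxc on chromosome 15 and Hoxd on chromosome 2), chosen by symbol, of 20871 named genes on the array. Their transcripts were measured on 12 one-colour expression arrays of white fat labelled gonadal, from male C57BL/6N mice of 59 to 67 days, with 3 arrays for each of 4 genotypes. The DKO mice lacked Gadd45a and Ing1 by label (Gadd45a-/-;Ing1-/-), the Ing1-KO mice lacked Ing1, the Gadd45a-KO mice lacked Gadd45a, and the WT mice carried both genes. All came from interbreeding of the mutant lines, and no treatment is given. Each array held RNA pooled from 3 of the 9 animals of its genotype, so every error here is a spread between pools of whole tissue.

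Within a cluster, Hox genes lie in the order in which they are used along the body. Genes at the 3′ end (low paralog numbers) mark the head and neck, and genes at the 5′ end (high numbers) mark the tail, the distal limb and the genital tract. Adult fat keeps part of this code, and depots of different origin are known to differ in which Hox genes they express. In embryos, Polycomb proteins hold the clusters silent, MLL complexes keep active genes on, and retinoic acid with the Cdx proteins opens them. Ing1 encodes a chromatin protein that reads a histone mark of active genes, and Gadd45a encodes an adaptor known for its part in DNA demethylation. The comparisons ask which Hox transcripts follow the loss of either gene or of both.

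The arrays had a median processed signal between 39.3 (WT replicate 2) and 68.9, and between 58.2% and 68.1% of probes were well above background. Pearson's r between arrays was between 0.960 and 0.994 across probes. Ing1 had a mean log2 signal of 9.32 ± 0.25 in DKO and 9.40 ± 0.13 in Ing1-KO fat, against 12.55 ± 0.21 in Gadd45a-KO and 12.46 ± 0.03 in WT fat (SD, n = 3 each). It was lower in DKO than in WT fat by a log2 fold change of -3.14 ± 0.14 (SE, adjusted p = 1.56e-06). Gadd45a went against its label: its probe read 10.61 ± 0.01 in arrays labelled DKO, 9.20 ± 0.12 in Ing1-KO, 10.17 ± 0.11 in arrays labelled Gadd45a-KO and 9.51 ± 0.25 in WT (SD, n = 3 each). Every array whose label lacks Gadd45a read higher than each of the 6 others (log2 difference 1.03 ± 0.09, SE, adjusted p = 0.00413). Whether this probe lies in the deleted stretch was not tested, so directions below that turn on the Gadd45a label refer to the arrays as labelled.

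The depot label was compared with genes known to differ between fat depots. Of genes described as higher in intra-abdominal fat, Wt1, Tcf21, Upk3b, Msln and Bnc1 (transcripts of the visceral mesoderm and its mesothelial cover) were well above background on 0 of 12 arrays, while Nr2f1, Thbd, Gpc4, Hoxa5 and Hoxc8 were above it on 12. Of genes described as higher in subcutaneous fat, Tbx15, Shox2, Sfrp2, Hoxc9 and Hoxc10 were above background on 12 of 12 arrays and En1 on 0. The tissue is therefore called by its label, without a claim about the depot. Skeletal muscle transcripts stood far above the rest on 3 arrays, with a mean log2 deviation of 2.29 in DKO replicate 1, 3.78 in Ing1-KO replicate 1 and 1.22 in Gadd45a-KO replicate 1, against -0.996 to -0.41 on the other 9. The Hox calls below are therefore also given without these 3 arrays.

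Which Hox genes were well above background in this fat followed their place in the cluster. Of the 39 genes, 26 were well above background on all 12 arrays, 2 on 3 to 11 arrays, 4 on a single array and 7 on none. Those shares were 66.7% on every array and 17.9% on none, against 67.3% and 17.6% of all named genes. All 15 genes of paralog groups 4 to 8, which pattern the neck and trunk, were above background on every array. The same held for 6 of 7 genes of groups 9 and 10 (thoracic and lumbar level) and for 5 of 8 genes of groups 1 to 3 (hindbrain and neck). No gene of groups 11 to 13, which pattern the sacral region, the distal limb and the genital tract, was well above background on more than 1 of the 12 arrays, out of 9 such genes. By a looser flag (signal positive and significant against background), Hoxc11 was on 10 arrays, Hoxc12 on 9, Hoxa13 on 8 and Hoxd11 on 7. Hoxa11 and Hoxc13 were on 2, and Hoxb13, Hoxd12 and Hoxd13 on 0. Where detection ends thus depends on the flag.

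**Figure D1:**
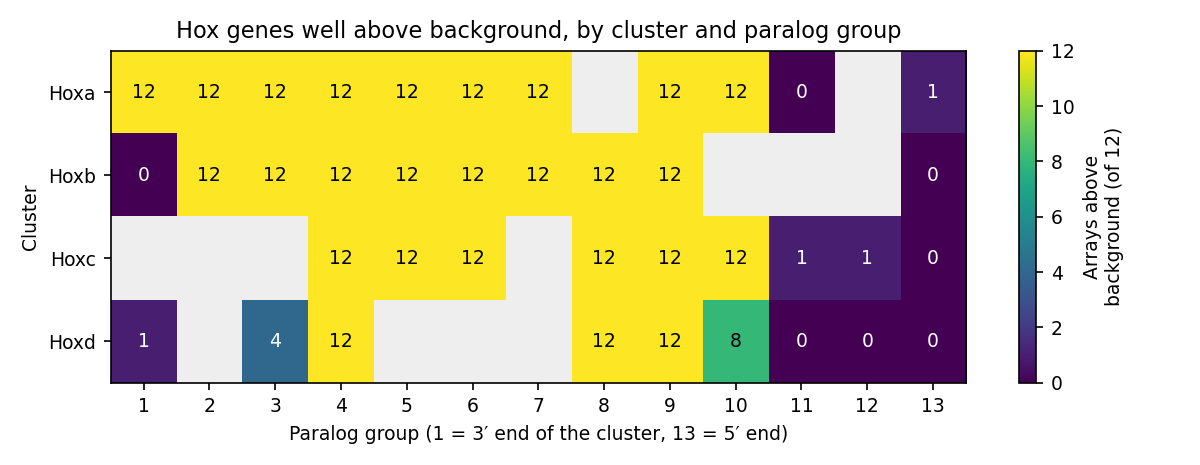
Number of arrays, of 12, on which each Hox gene was well above background, with the 4 clusters down the page and the paralog group (1 at the 3′ end, 13 at the 5′ end) across it; grey squares are positions with no gene. Groups 4 to 8 read 12 throughout, while groups 11 to 13 read 0 or 1.

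The genes on none of the arrays were Hoxa11, Hoxb1, Hoxb13, Hoxc13, Hoxd11, Hoxd12 and Hoxd13. Hoxa13 was above background in Ing1-KO replicate 3 alone, Hoxc11 in DKO replicate 1, Hoxc12 in Gadd45a-KO replicate 1 and Hoxd1 in Ing1-KO replicate 2. Signal well above background on more than 1 array thus ended at paralog group 10 in the Hoxa, Hoxc and Hoxd clusters. In the Hoxb cluster, which has no gene between Hoxb9 and Hoxb13, it ended at group 9. In the Hoxd cluster the signal was also patchy at the other end, since Hoxd3 was well above background on 4 arrays. These were 0 of 3 DKO, 1 of 3 Ing1-KO, 2 of 3 Gadd45a-KO and 1 of 3 WT arrays. By the looser flag Hoxd3 was on all 12. Genes above background on at least 3 arrays were tested, which kept 28 of the 39.

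In the Hoxa cluster, Hoxa10 was well above background on all 12 arrays and the next gene, Hoxa11, on none. The pair just inside this boundary of the stricter flag, Hoxa9 and Hoxa10, had the smallest adjusted p of the Hox genes with Ing1 loss. The 250 bases before the start of each of these genes are therefore shown, from RefSeq on GRCm38.p6, each read 5′ to 3′ on the minus strand with CG dinucleotides in capitals. The stretches are chr6:52227371-52227620 for Hoxa9, chr6:52240855-52241104 for the upstream start of Hoxa10, chr6:52234940-52235189 for its downstream start and chr6:52245811-52246060 for Hoxa11.
Hoxa9: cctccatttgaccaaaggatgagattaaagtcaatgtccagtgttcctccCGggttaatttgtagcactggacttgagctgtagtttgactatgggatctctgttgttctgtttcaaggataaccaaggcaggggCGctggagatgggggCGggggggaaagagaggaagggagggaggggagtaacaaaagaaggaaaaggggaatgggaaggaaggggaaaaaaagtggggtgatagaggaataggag
Hoxa10, upstream start: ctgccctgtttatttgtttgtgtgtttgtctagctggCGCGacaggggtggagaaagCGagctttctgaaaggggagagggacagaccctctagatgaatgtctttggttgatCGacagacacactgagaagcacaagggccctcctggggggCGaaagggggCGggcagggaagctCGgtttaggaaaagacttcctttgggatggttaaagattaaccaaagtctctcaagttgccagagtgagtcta
Hoxa10, downstream start: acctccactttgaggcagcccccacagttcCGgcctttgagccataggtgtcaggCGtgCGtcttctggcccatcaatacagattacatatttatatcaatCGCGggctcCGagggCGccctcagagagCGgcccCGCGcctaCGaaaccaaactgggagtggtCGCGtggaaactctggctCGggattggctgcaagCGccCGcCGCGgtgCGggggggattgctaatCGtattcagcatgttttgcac
Hoxa11: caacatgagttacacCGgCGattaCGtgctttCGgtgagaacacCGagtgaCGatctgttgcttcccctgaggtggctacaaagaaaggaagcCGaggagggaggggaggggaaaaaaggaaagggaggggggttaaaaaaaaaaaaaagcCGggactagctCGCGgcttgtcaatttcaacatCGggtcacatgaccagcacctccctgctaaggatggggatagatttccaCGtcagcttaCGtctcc

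These 4 stretches differ in the density of CG, the dinucleotide at which DNA is methylated. The Hoxa9 stretch holds 3, and the upstream and downstream stretches of Hoxa10 hold 7 and 20. The stretch before Hoxa11, which was well above background on no array, holds 13. The median was 6 over 32851 RefSeq promoters of the same length. RefSeq promoters were matched for 22 of the 39 Hox genes. The 16 promoters of 15 tested genes had a median of 12 CG (3 to 28), and the 8 promoters of 7 genes left untested had a median of 16.5 (2 to 35). Searched on both strands, TTTATG, a core sequence of Cdx and 5′ Hox proteins, was in 5 of the 24 Hox promoters and in 10.8% of all promoters. TGATTNAT, a joint sequence of Pbx and Hox proteins, was in 2 and in 2.83%. Neither was found in the 4 stretches shown.

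Ing1 loss was examined over both Gadd45a labels, as the mean of DKO and Ing1-KO arrays minus the mean of Gadd45a-KO and WT arrays. Hoxa9, Hoxa10, Hoxa2, Hoxc6 and Hoxd8 rose and no Hox gene fell at an adjusted p under 0.05 (limma, Benjamini-Hochberg over 31453 genes and unnamed probes). These 5 are 17.9% of the 28 tested Hox genes, beside 16.0% of all features called in either direction. Every one of them was higher, while all features split into 6.93% called higher and 9.09% called lower. The count is close to the background share. The values come from whole tissue, in which a change in the cells of a type and a change in RNA per cell cannot be told apart.

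Hoxa9, a trunk gene also known for its part in blood progenitors, had normalized log2 signals of 7.84, 8.05 and 7.77 in DKO arrays and 7.46, 7.38 and 7.71 in Ing1-KO arrays. It had 7.12, 7.02 and 6.71 in arrays labelled Gadd45a-KO and 6.98, 7.19 and 7.18 in WT arrays. All 6 arrays without Ing1 lay above all 6 with it, and the 3 DKO arrays lay above the 3 Ing1-KO arrays. The pooled log2 fold change was 0.67 ± 0.11 (SE, adjusted p = 0.00721), a 1.59-fold rise, and within slides 1, 2 and 3 it was 0.60, 0.61 and 0.80. Hoxa9 was the only one of the 28 whose groups of 6 did not overlap, which is 3.57% of them beside 3.38% of all features lying above and 4.91% lying below. A second Hoxa9 probe gave 0.85 ± 0.18 (SE, adjusted p = 0.0141).

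Hoxa10, known for patterning the lumbar spine and the genital tract, had 9.29, 9.08 and 8.22 in DKO arrays and 8.31, 7.91 and 7.95 in Ing1-KO arrays. Its signals were 7.75, 7.61 and 7.39 in arrays labelled Gadd45a-KO, against 7.96, 7.73 and 7.56 in WT arrays. The 3 DKO arrays were the highest but for 1 Ing1-KO array, and the lowest Ing1-KO arrays came just under the highest WT array. The pooled rise was 0.79 ± 0.17 (log2, SE, adjusted p = 0.0164), or 1.73-fold, with 0.95, 0.83 and 0.61 within the slides.

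Hoxc6, a thoracic gene, had 12.68, 13.07 and 12.44 in DKO and 12.54, 12.36 and 12.42 in Ing1-KO arrays, against 12.26, 12.07 and 11.95 in Gadd45a-KO and 11.85, 12.46 and 11.94 in WT arrays. The groups overlapped through WT replicate 2, which reached the level of the arrays without Ing1. The log2 fold change was 0.50 ± 0.13 (SE, adjusted p = 0.027). Hoxd8, a trunk gene, had 8.66, 8.81 and 8.66 in DKO and 9.00, 8.33 and 8.67 in Ing1-KO arrays, against 8.20, 8.40 and 8.04 in Gadd45a-KO and 8.38, 8.15 and 8.24 in WT arrays. Ing1-KO replicate 2 fell among the arrays with Ing1 and the other 5 lay above them. Its log2 fold change was 0.46 ± 0.12 (SE, adjusted p = 0.0281).

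Hoxa2, known for the hindbrain and the neural crest of the face, had 6.31, 6.75 and 6.37 in DKO and 6.46, 6.37 and 6.08 in Ing1-KO arrays, against 6.13, 6.10 and 5.99 in Gadd45a-KO and 5.98, 5.63 and 5.96 in WT arrays. Only Ing1-KO replicate 3 lay among the arrays with Ing1. The log2 fold change was 0.42 ± 0.13 (SE, adjusted p = 0.0464), so close to the threshold that it passed in 1 of the 12 fits that left out an array, the one without DKO replicate 3.

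**Figure D2:**
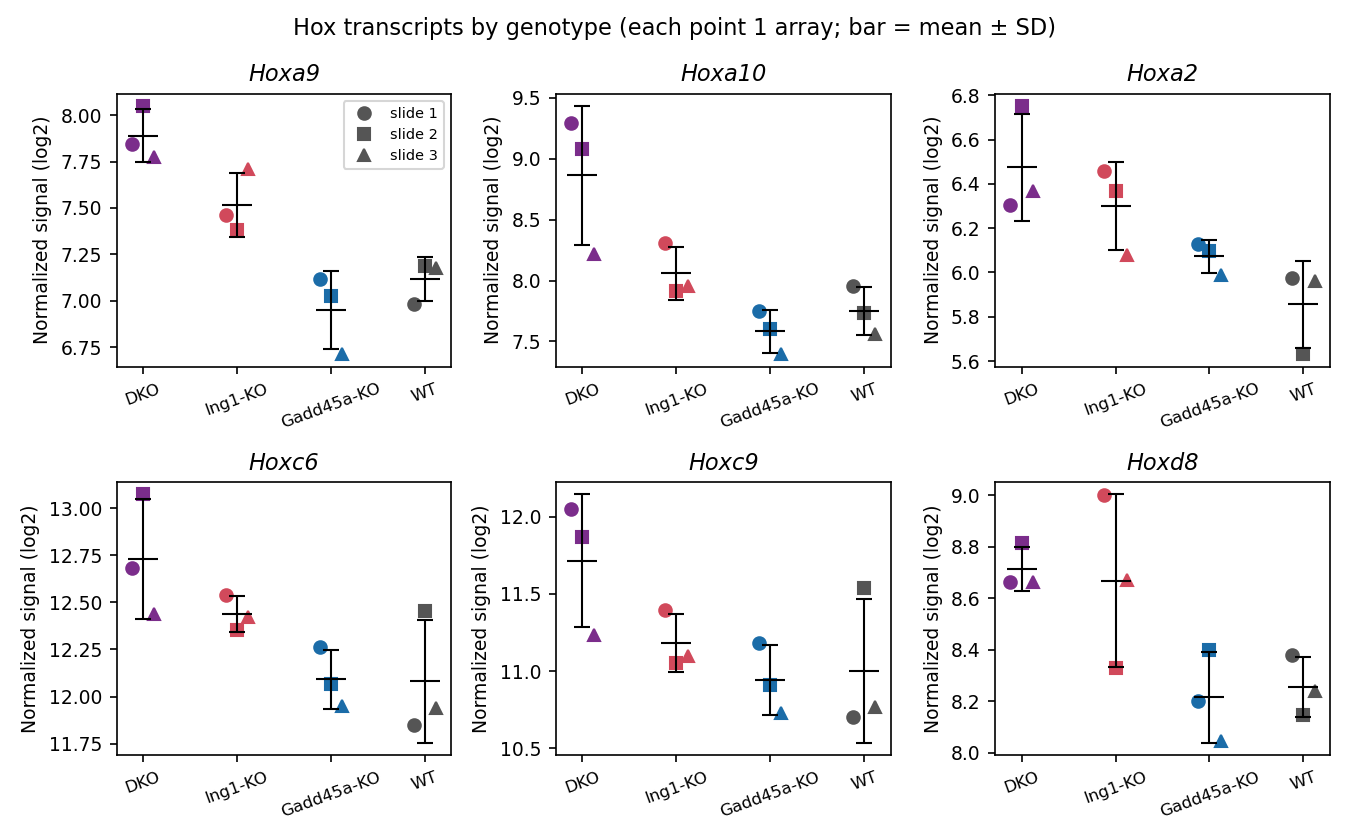
Normalized log2 signal (vertical axes, each with its own range) of 6 Hox genes by genotype; each point is 1 array, its shape the slide, and the bars are mean ± SD of 3 arrays. Hoxa9 averaged 7.89 in DKO and 7.52 in Ing1-KO arrays, against 6.95 in Gadd45a-KO and 7.12 in WT arrays, with no overlap between arrays without and with Ing1.

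The median log2 fold change of the 28 tested Hox genes with Ing1 loss was 0.26, beside -0.04 over all features. With 1 array left out it ranged from 0.15 to 0.35, the 0.15 without DKO replicate 2. It was positive in all 9 tested Hoxa genes (median 0.25), in 7 of 8 Hoxb genes (0.23) and in all 6 Hoxc genes (0.43). Of the 5 tested Hoxd genes, Hoxd3 and Hoxd10 lay near background, and Hoxd4, Hoxd8 and Hoxd9 had log2 fold changes of -0.02, 0.46 and 0.05. By position, the medians were 0.32 for groups 1 to 3, 0.21 for groups 4 to 8 and 0.36 for groups 9 and 10. At an unadjusted p under 0.05, 10 of 28 were higher (35.7%, beside 14.3% of all features) and 1 was lower (3.57%, beside 18.7%).

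Several genes came near the threshold. Hoxc8, known as a repressor of the brown fat programme in mice, had a log2 fold change of 0.66 ± 0.22 (SE, adjusted p = 0.0584). Hoxc9, a thoracic gene known to be high in subcutaneous fat, had 12.05, 11.87 and 11.23 in DKO and 11.40, 11.05 and 11.10 in Ing1-KO arrays, against 11.18, 10.91 and 10.73 in Gadd45a-KO and 10.70, 11.54 and 10.77 in WT arrays. WT replicate 2 again stood with the DKO arrays, and the log2 fold change was 0.48 ± 0.17 (SE, adjusted p = 0.082).

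Of the Hoxb genes, Hoxb3 and Hoxb2, genes of the hindbrain and neck, had the smallest p in the F test over the 4 genotypes. Hoxb3 had 8.12, 8.97 and 8.23 in DKO and 8.03, 8.10 and 8.45 in Ing1-KO arrays, against 7.59, 7.84 and 7.64 in Gadd45a-KO and 7.64, 8.35 and 8.08 in WT arrays, with a log2 fold change of 0.46 ± 0.17 (SE, adjusted p = 0.0841). Its second probe gave 0.22 ± 0.15 (SE). Hoxb2 had 8.30, 9.04 and 8.19 in DKO and 8.64, 8.17 and 8.05 in Ing1-KO arrays, against 8.07, 7.96 and 7.81 in Gadd45a-KO and 8.22, 8.07 and 7.95 in WT arrays (log2 fold change 0.39 ± 0.16, SE, adjusted p = 0.113). The groups overlapped for both genes, and DKO replicate 2 was the highest of the 12 arrays in each.

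These calls rested on the full set of arrays. With the position of the array on its slide (column) as a block, 0 of the 28 Hox genes passed with limma, beside 0.124% of all features, and 8 had an unadjusted p under 0.05. Hoxa9 kept a log2 fold change of 0.68 (adjusted p = 0.0665) and Hoxa10 one of 0.71 (adjusted p = 0.0965). The columns were uneven over genotypes, since column 4 held only WT replicate 2 and Gadd45a-KO replicate 2, both with Ing1. Column and genotype thus cannot be fully told apart. Without the 3 arrays high in skeletal muscle transcripts 0 passed beside 0.00318% of all features, and 8 had an unadjusted p under 0.05. The log2 fold changes were then 0.74 for Hoxa9 (adjusted p = 0.0736), 0.66 for Hoxa10 (0.108), 0.53 for Hoxc6 (0.126), 0.38 for Hoxd8 (0.148) and 0.44 for Hoxa2 (0.160). All 3 arrays left out were on slide 1, where WT replicate 1 alone remained. Muscle content and slide thus cannot be told apart in this fit. The part of the muscle transcripts in the calls was not tested beyond it. With the slide as a block, Hoxb3 (adjusted p = 0.0392) and Hoxc8 passed as well, beside 20.2% of all features.

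DKO fat was then set against WT fat. None of the 28 Hox genes passed the adjusted threshold with limma, beside 0.162% of all features (0.0827% higher and 0.0795% lower). At an unadjusted p under 0.05, 6 were higher (21.4%, beside 10.2% of all features) and 0 were lower (beside 12.8%). The median log2 fold change was 0.31, beside -0.04 over all features, and ranged from 0.12 to 0.45 with 1 array left out. It was 0.12 without DKO replicate 2 and 0.20 without WT replicate 3. Hoxa10 had the largest log2 fold change, 1.11 ± 0.25 (SE, adjusted p = 0.0701, 2.16-fold), with 1.33, 1.35 and 0.66 within slides. Hoxa9 had 0.77 ± 0.16 (SE, adjusted p = 0.0648), Hoxc6 0.65 ± 0.18 (adjusted p = 0.092) and Hoxa2 0.62 ± 0.18 (adjusted p = 0.0993). With the slide as a block Hoxa9 and Hoxa10 passed, at adjusted p = 0.0472 and 0.0357, beside 2.08% of all features.

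The arrays of the groups did not overlap for 5 genes. Hoxa2, Hoxa9, Hoxa10 and Hoxd8 lay higher in all 3 DKO arrays (14.3%, beside 9.66% of all features). Hoxb9, a thoracic gene, lay lower in all 3, with a log2 fold change of -0.51 ± 0.32 (SE, adjusted p = 0.351; 12.6% of all features lay below).

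Between DKO fat and fat labelled Gadd45a-KO, which differ in Ing1, Hoxa10, Hoxa9 and Hoxc6 rose and none fell. They are 10.7% of the 28 tested genes, beside 15.0% of all features in either direction with 6.49% called higher and 8.47% called lower. Hoxa10 rose by a log2 fold change of 1.28 ± 0.25 (SE, adjusted p = 0.0137, 2.43-fold), with 1.55, 1.47 and 0.82 within slides. Hoxa9 rose by 0.94 ± 0.16 (SE, adjusted p = 0.0099, 1.92-fold), with 0.73, 1.03 and 1.06, and Hoxc6 by 0.64 ± 0.18 (SE, adjusted p = 0.0391), with 0.42, 1.01 and 0.49. These arrays also enter the pooled comparison of Ing1 loss, so the values are not independent of it.

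The other tested Hox genes did not pass. At an unadjusted p under 0.05, 14 of 28 genes were higher (beside 14.3% of all features) and 0 were lower, beside 18.6%. The 3 DKO arrays lay above the 3 Gadd45a-KO arrays for 13 genes (46.4%, beside 16.5%) and below them for Hoxd3, Hoxd4 and Hoxd10 (10.7%, beside 20.8%). The median log2 fold change was 0.50, beside -0.03 over all features. It was 0.50 over 9 Hoxa genes, 0.45 over 8 Hoxb genes and 0.72 over 6 Hoxc genes. Without DKO replicate 2 the median over the 28 was 0.29. With the slide as a block 7 Hox genes passed, the 3 above with Hoxb3, Hoxc5, Hoxc8 and Hoxc9, beside 19.3% of all features. With the column as a block or without the 3 muscle-high arrays no Hox gene passed with limma, beside 0.00954% and 0.00318% of all features, and 10 and 13 had an unadjusted p under 0.05. Hoxa10 then had 1.10 (adjusted p = 0.135) and 1.15 (adjusted p = 0.101), Hoxa9 had 0.91 (0.126) and 1.05 (0.0961), and Hoxc6 had 0.61 (0.183) and 0.75 (0.132). The call of Hoxa10 was also lost when DKO replicate 1, DKO replicate 2 or Gadd45a-KO replicate 3 was left out, and that of Hoxc6 in 7 of the 12 fits that left out an array.

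**Figure D3:**
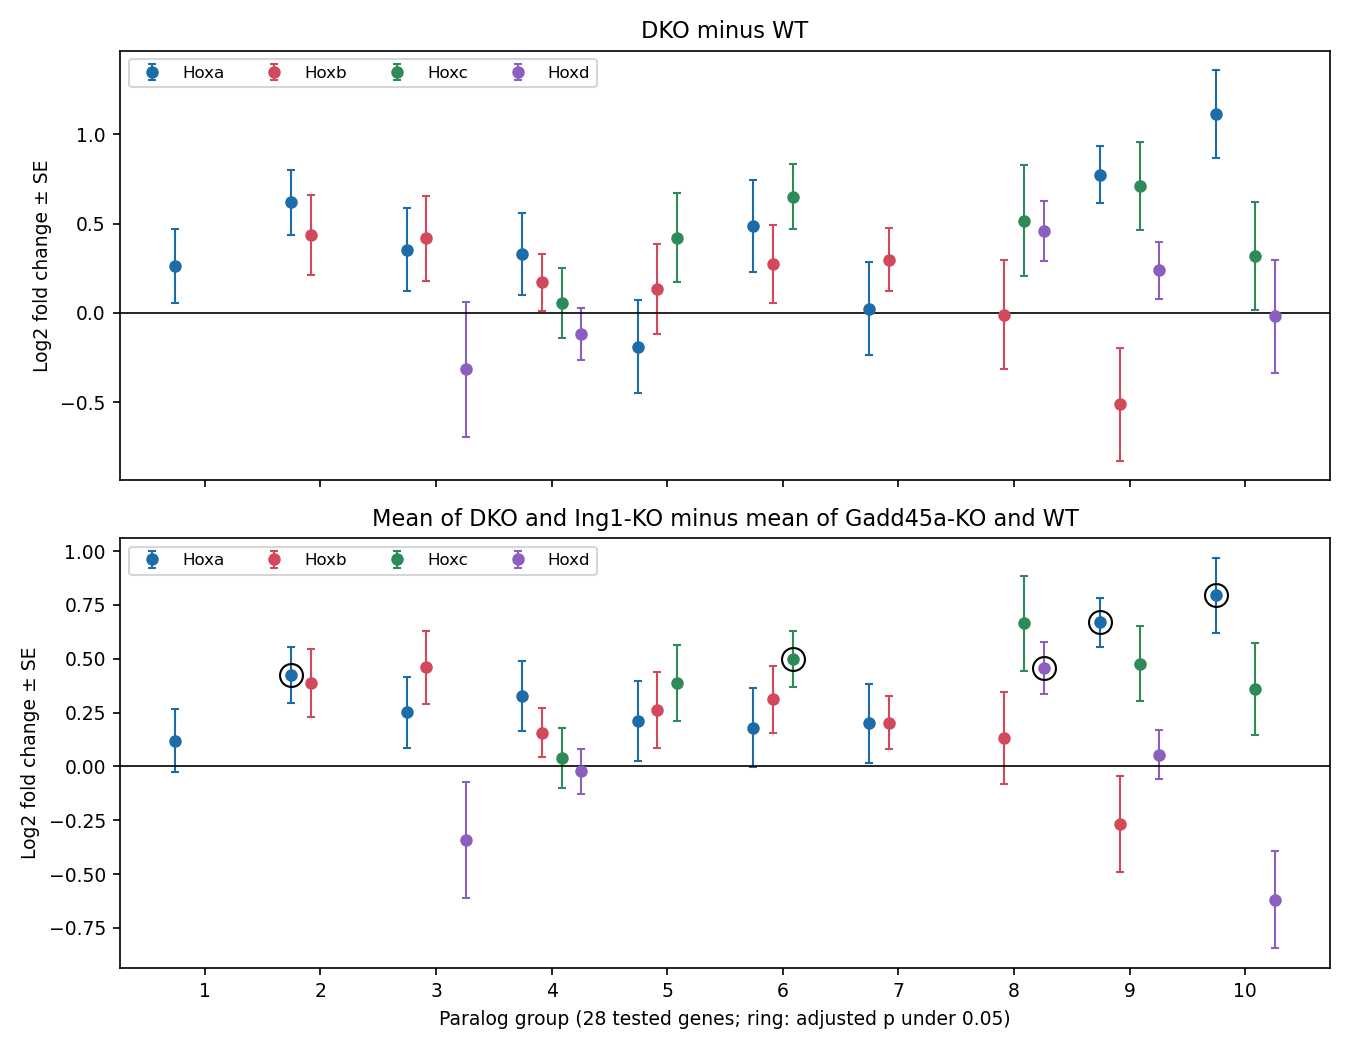
Log2 fold change ± SE (vertical axis) of the 28 tested Hox genes by paralog group, coloured by cluster; the upper panel is DKO minus WT and the lower the mean of DKO and Ing1-KO minus the mean of Gadd45a-KO and WT. Rings mark an adjusted p under 0.05 (5 genes in the lower panel, 0 in the upper), and Hoxd10, Hoxd3 and Hoxb9 lie lowest in the lower panel. Hoxd3, above background on 0 of 3 DKO arrays, is plotted as fitted.

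Hoxd3 and Hoxd10 lay near background, so a direction of the Hoxd cluster as a whole was not read. Hoxd10, a gene of the lumbar cord and hind limb, was dim, with 4.46, 4.33 and 4.50 in DKO and 4.39, 3.13 and 4.11 in Ing1-KO arrays, against 5.03, 5.24 and 5.01 in Gadd45a-KO and 4.55, 4.68 and 4.13 in WT arrays. It was above background on 2 of 3 DKO, 1 of 3 Ing1-KO, 3 of 3 Gadd45a-KO and 2 of 3 WT arrays, and the Gadd45a-KO arrays were the highest. Its log2 difference with Ing1 loss was -0.62 ± 0.23 (SE, adjusted p = 0.08), and over the other settings it lay between -0.77 and -0.12, the last with normexp background correction. Hoxd4 had -0.24 ± 0.15 (SE, adjusted p = 0.277) between DKO and Gadd45a-KO fat, while Hoxd8 was the cluster's single called gene. Hoxd9 differed by 0.05 ± 0.11 (SE) with Ing1 loss. The annotated spans of Hoxd3 and Hoxd4, of Hoxd10 and Hoxd11, of Hoxb3 and Hoxb4, and of Hoxa3 with Hoxa4, Hoxa5 and Hoxa6 overlap, so a probe in such a stretch can read more than 1 of them.

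The single knockouts gave no called Hox gene. In Ing1-KO against WT fat 0 of 28 Hox genes passed with limma, beside 0.00318% of all features. At an unadjusted p under 0.05, 3 were higher (10.7%, beside 3.75%) and 0 were lower (beside 4.86%). The 3 were Hoxa2 (0.44 ± 0.18, SE, adjusted p = 0.572), Hoxd8 (0.41 ± 0.17, adjusted p = 0.571) and Hoxa9 (0.40 ± 0.16, adjusted p = 0.567). Hoxa2 and Hoxa9 lay higher in all 3 Ing1-KO arrays, beside 7.24% of all features. The median over the 28 was 0.07, beside -0.04, with 0.01 without WT replicate 3 and 0.24 without WT replicate 2.

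In fat labelled Gadd45a-KO against WT, 0 Hox genes passed with limma, beside 0.0% of all features, and 0 had an unadjusted p under 0.05, beside 1.54% of features higher and 0.808% lower. The median log2 difference over the 28 was -0.12 and ranged from -0.19 to 0.03 with 1 array left out, the 0.03 without WT replicate 2. With all arrays, 21 of 23 genes in the Hoxa, Hoxb and Hoxc clusters had a negative log2 difference (median -0.17, beside -0.0002 over all features). Of the Hoxd genes that were not near background, Hoxd4, Hoxd8 and Hoxd9 had 0.12, -0.04 and 0.26. The smallest p belonged to Hoxa5, Hoxd10 and Hoxb5. Hoxa5, a gene of the neck and lung that is known to be high in visceral fat, had 6.48, 6.38 and 5.99 in Gadd45a-KO and 6.82, 6.91 and 6.77 in WT arrays, with all WT arrays higher (-0.55 ± 0.26, SE, adjusted p = 1.00). In the other genotypes it had 6.53, 7.16 and 6.24 in DKO and 7.30, 6.93 and 6.46 in Ing1-KO arrays.

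Hoxb5, a gene of the shoulder level, had 8.27, 9.17 and 8.35 in DKO and 8.58, 8.15 and 8.41 in Ing1-KO arrays, against 8.21, 7.995 and 7.75 in Gadd45a-KO and 8.35, 8.85 and 8.21 in WT arrays. Its difference between Gadd45a-KO and WT was -0.48 ± 0.25 (log2, SE, adjusted p = 1.00), and DKO replicate 2 and WT replicate 2 were its highest arrays. Hoxd10 was higher in all 3 Gadd45a-KO arrays than in WT (0.64 ± 0.32, SE, adjusted p = 1.00). In all, 3 genes (Hoxa2, Hoxd9 and Hoxd10) lay above and 1 (Hoxa5) below without overlap, beside 5.53% and 2.6% of all features.

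DKO against Ing1-KO fat, which differ in the Gadd45a label, gave 0 called Hox genes beside 0.00318% of all features with limma. At an unadjusted p under 0.05, 3 were higher (beside 1.43% of all features) and 0 lower (beside 2.08%). The 3 were Hoxa10 (0.81 ± 0.25, SE), Hoxa9 (0.37 ± 0.16) and Hoxa6, a thoracic gene (0.67 ± 0.26), each at an adjusted p of 0.948. Hoxa9 and Hoxc5 lay higher in all 3 DKO arrays (7.14%, beside 5.14%). The median of 0.22 over the 28 genes went to -0.001 without DKO replicate 2, so it rested on that array.

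Pooled over both Ing1 labels, the Gadd45a label gave 0 called Hox genes beside 0.00318% of features with limma, and 1 gene at an unadjusted p under 0.05, Hoxd10 (0.60 ± 0.23, SE, adjusted p = 1.00). Over the other settings that value lay between 0.17 and 0.74. Among all features 0.556% were higher and 0.378% lower at that p. Next came Hoxa5 (-0.40 ± 0.19) and Hoxa10 (0.32 ± 0.17). The groups of 6 overlapped for all 28 Hox genes, beside 0.0318% of features without overlap above and 0.0318% below. Whether the change with Ing1 loss differed between the Gadd45a labels was tested as an interaction. It gave 0 called Hox genes beside 0.0% of features with limma. At an unadjusted p under 0.05, 2 genes were higher (beside 2.31% of features): Hoxa10, with 0.97 ± 0.35 (log2, SE, adjusted p = 0.728), and Hoxa9, with 0.54 ± 0.23 (adjusted p = 0.728). Over all 4 genotypes the F test called Hoxa9 alone (adjusted p = 0.0367, beside 1.99% of features), with Hoxa10 next (adjusted p = 0.0523).

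Cluster means and marker lists were set side by side on each array, as a description. The mean log2 deviation from each gene's average was highest in DKO replicate 2 for Hoxa (0.71), Hoxb (0.49) and Hoxc genes (0.69), and next highest among the other arrays for Hoxb and Hoxc in WT replicate 2 (0.32 and 0.44). Hoxd genes averaged 0.01 in DKO replicate 2 and -0.17 in WT replicate 2, and were highest in Gadd45a-KO replicate 2 (0.33). Hoxd3 and Hoxd10, which lay near background, enter this mean, and both had their highest signal on that array (4.80 and 5.24). Adipocyte markers had a range of 0.03 to 0.60 in DKO, 0.01 to 0.17 in Ing1-KO, -0.46 to -0.17 in Gadd45a-KO and -0.34 to 0.26 in WT arrays. Leukocyte markers had -0.81 to -0.10 in DKO, -0.24 to 0.01 in Ing1-KO, 0.33 to 0.40 in Gadd45a-KO and -0.00 to 0.28 in WT arrays. Endothelial markers had -0.13 to 0.63 in DKO, -0.08 to 0.24 in Ing1-KO, -0.34 to 0.02 in Gadd45a-KO and -0.30 to 0.18 in WT arrays, with the 0.63 in DKO replicate 2. The part of these shifts in the Hox values was not tested.

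**Figure D4:**
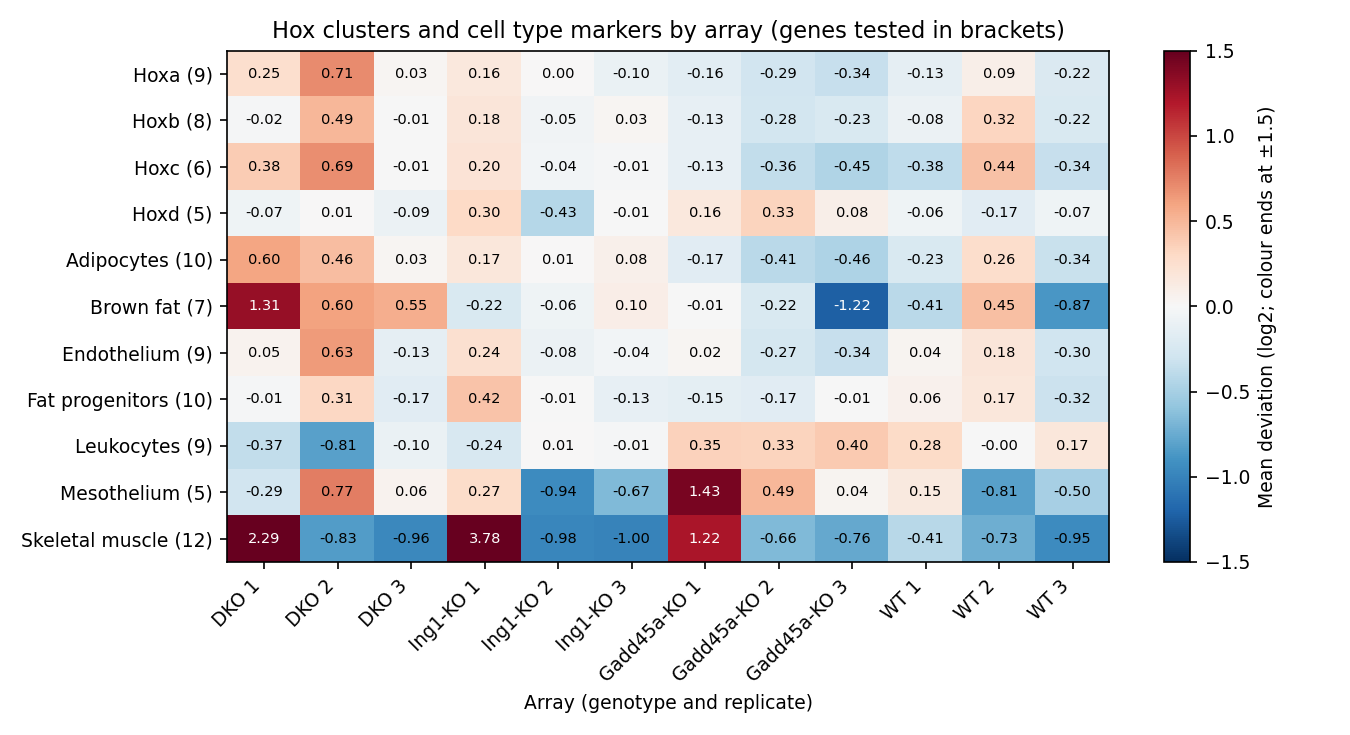
Mean log2 deviation of each Hox cluster and marker list (rows, tested genes in brackets) on each of the 12 arrays (columns), red above and blue below the gene's average over arrays. DKO replicate 2 reads 0.71 for Hoxa and 0.69 for Hoxc genes, where leukocyte markers read -0.81. Skeletal muscle markers read 3.78 in Ing1-KO replicate 1. The Hoxd row includes Hoxd3 and Hoxd10, which lay near background.

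The marker lists were tested in the same fit, and each count below stands beside the 6.93% of all features called higher and the 9.09% called lower with Ing1 loss. Without the 3 muscle-high arrays 0.00318% of all features passed, and with the column block 0.124%, so the list calls rest on the full set of arrays. With Ing1 loss, 3 of 10 adipocyte markers rose and none fell: leptin (Lep, 0.89 ± 0.17), hormone-sensitive lipase (Lipe, 0.76 ± 0.18) and the lipid droplet protein Plin1 (0.57 ± 0.14; log2, SE). Between DKO and Gadd45a-KO fat 5 of the 10 rose, beside 6.49% of all features called higher. Of 9 leukocyte markers, 4 fell and none rose, among them the macrophage growth factor receptor Csf1r (-0.53 ± 0.09), Itgax (-0.64 ± 0.16) and the T cell gene Cd3e (-0.73 ± 0.17).

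Among vessel and stromal markers, Tek, an endothelial receptor, was the only one of 9 endothelial markers to rise with Ing1 loss (0.74 ± 0.17), Dpt the only one of 10 fat progenitor markers (0.64 ± 0.18), and Rgs5, a pericyte gene, the only one of 7 tested smooth muscle and pericyte markers (0.68 ± 0.18; log2, SE). Positive values were seen for 8 of 9 endothelial (median 0.16), 7 of 10 progenitor (0.06) and 5 of 7 smooth muscle and pericyte markers (0.20). Ebf2, a transcription factor of brown and beige adipocytes, rose (0.71 ± 0.12), alone of 7 brown fat markers. Of those 7, 6 were positive, with a median of 0.77 beside -0.04 over all features. Between DKO and Gadd45a-KO fat Ucp1, the heat-producing carrier of brown fat, rose too, by 2.59 ± 0.78 (SE, adjusted p = 0.0445), with Cox8b and Ebf2.

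Markers of tissue beside the depot gave few calls with Ing1 loss. Of 12 skeletal muscle markers 0 passed, though 10 were positive, with a median log2 fold change of 0.83. Their highest arrays were Ing1-KO replicate 1 (mean deviation 3.78), DKO replicate 1 (2.29) and Gadd45a-KO replicate 1 (1.22). Of 18 epididymis genes, 13 were above background on no array and the 2 tested did not pass. Of 10 germ cell genes 5 were tested and Tnp2 fell (-0.97 ± 0.30, SE). Of 10 mesothelial genes 5 were on no array. Among the 5 tested Lrrn4 rose (0.62 ± 0.15), but only 2 of the 5 were positive, with a median of -0.12. Krt18, which did not pass, had -1.65 ± 0.59 (log2, SE). Of 8 genes of blood progenitors, cells in which Hoxa9 is known to act with Meis1, Meis1 rose and Flt3, a cytokine receptor, fell (-0.76 ± 0.22).

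Hox proteins bind DNA with cofactors of the Pbx, Meis and Pknox families. All 9 cofactor genes were above background on every array. With Ing1 loss Meis1 rose (0.42 ± 0.10, SE, adjusted p = 0.0183), with all 6 arrays above the other 6, while Meis3 fell (-0.47 ± 0.08, adjusted p = 0.0069), with all 6 below, and Pknox2 fell (-0.44 ± 0.13, adjusted p = 0.0411). The median of the 9 was -0.08, beside -0.04 over all features.

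Other patterning genes that differ between fat depots moved in both directions. Of 20 listed, 15 were tested, 3 rose and 1 fell with Ing1 loss (median 0.22). Shox2, a limb and skeletal patterning gene, rose by 0.95 ± 0.18 (SE, adjusted p = 0.0109), with no overlap between arrays without and with Ing1, and Emx2 rose as well. Foxf1, a gene of visceral mesoderm, differed by -0.75 ± 0.18 (adjusted p = 0.0212) and so fell.

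Genes of the machinery that is known to set Hox activity in embryos were counted in the same fit, beside the same shares of all features. Of 20 Polycomb genes 1 rose with Ing1 loss, Phc1 (0.39 ± 0.09, log2, SE), and 2 fell, Cbx6 (-0.42 ± 0.10) and Phf19 (-0.58 ± 0.15). Of 10 tested genes of the MLL complex and of demethylases that remove the Polycomb mark 0 passed. Dpy30 had 0.17 ± 0.07 (SE, adjusted p = 0.102 with limma). Kmt2a, an MLL gene also listed, had no named probe on the array, so it was not measured. Of 16 genes of the retinoic acid pathway with the Cdx genes, Cdx2, Cdx4, Cyp26a1 and Crabp1 were on no array. Among the 11 tested, 3 fell and none rose. Those that fell included the receptor Rara (-0.32 ± 0.07) and the retinol transporter Stra6 (-0.83 ± 0.21).

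Genes around the clusters were read in the same way. Of 24 tested genes that flank the 4 clusters (3 at each end), 4 rose and 2 fell with Ing1 loss, beside 16.0% of all features in either direction, with a median log2 fold change of 0.04. These calls rest on the full set of arrays, as above. Snx10 (0.61 ± 0.14) and Hibadh (0.63 ± 0.13) beside Hoxa and Mtx2 (0.51 ± 0.09) and Nfe2l2 (0.28 ± 0.09) beside Hoxd rose, and Skap1 (-0.86 ± 0.20) beside Hoxb and Hnrnpa3 (-0.26 ± 0.08) beside Hoxd fell (log2, SE). Inside the clusters the antisense transcripts Hoxa11os (0.24 ± 0.25) and Hoxd3os1 (0.22 ± 0.13) did not pass. The Hoxa cluster lies on the chromosome of Gadd45a, within 20 Mb of it, and Ing1 lies on chromosome 8. Linkage to the targeted loci was not tested.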

How the data were processed

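RNA of 12 pools (3 arrays per genotype) was labelled with Cy3 and read on one-colour Agilent arrays. Per the file headers, Feature Extraction 10.7.3.1 made the deposited intensity values (a background-subtracted processed signal, and spot and local background signals) and the flags for spots well above background. The authors' table of log2 values, for which the submitters' processing notes name limma 3.26.9, was used as an alternative and its scale and normalization were read from the values.

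Here, the log2 processed signal was shifted so that all arrays shared 1 75th percentile, after control and marked spots were left out, and spots of 1 probe were averaged. Of 55681 probes 94 had no value. Of 29107 probes with a RefSeq accession 27469 were named through the annotation given (20871 genes). A probe had to exceed background clearly on 3 or more of the 12 arrays to be kept, with the brightest kept probe per gene, which left 31453 features. limma 3.58.1 in R 4.3.3 fitted 4 group means over all arrays (intensity trend, robust moderation, 8 residual degrees of freedom), two-sided, with Benjamini-Hochberg adjustment over all features and a threshold of 0.05. Tables were made with Python 3.11.15 and pandas 2.3.3. Simulated data with known changes were used to check the fit. With 3 arrays a genotype, their number sets how precise a value can be.

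The members and gene lists were chosen with earlier results of these data known. Values on every array are given for each Hox gene past the threshold in any comparison, for the 2 per cluster with the smallest F test p, and for the 3 with the smallest p in each comparison against WT and in the 2 pooled ones. For other lists up to 3 genes with the smallest F test p are named, and others named beside a count were chosen after their values were seen. Some genes of these lists are not reported here by name. Replicate numbers matched slides and scans. Deviations from group means correlated above 0.1 in 9 of 18 same-numbered array pairs, so the numbers were not taken to pair pools. Alternatives were quantile and median scaling, normexp with an offset of 50, other filters, every probe, plain moderation, slide, row or column as a block, only the arrays compared, each array left out, and, chosen after seeing the data, leaving out the 3 arrays highest in muscle transcripts.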

Additional observations from a re-analysis of the deposited data

How the results depend on the processing

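No called Hox gene changed direction under any setting run, and medians moved by less than the spread between replicates (SD 0.196) except where given here. The number of Hox genes detected was 26 to 32 under other rules, beside 28. The counts of 0 for Gadd45a-KO against WT, Ing1-KO against WT, DKO against Ing1-KO, the Gadd45a label and the interaction stayed 0 under all of them. For DKO against WT, the count of Hox genes called (0) became 1 with normexp, 1 with the authors' values, 2 with the replicate block (slide) and 0 to 4 with an array left out. For DKO against Gadd45a-KO (3) it was 6 with quantile normalization, 7 with median centring, 6 with a filter on all 12 arrays, 1 with only the arrays compared, 7 with the replicate block, 0 with the column block, 0 without the 3 muscle-high arrays and 1 to 8 with an array left out. For Ing1 loss (5) it was 7 with median centring, 7 with the replicate block, 0 with the column block, 0 without the muscle-high arrays and 2 to 9 with an array left out, the 9 without WT replicate 2. The F test count (1) was 2 with quantile normalization, 0 with no filter, 2 with a filter on all 12 arrays, 2 with the replicate block, 0 with the row block, 0 with the column block, 0 without the muscle-high arrays and 0 to 3 with an array left out. The median log2 fold change of the 28 genes ranged over 0.29 to 0.59 for DKO against Gadd45a-KO and -0.001 to 0.37 for DKO against Ing1-KO with an array left out, and for the interaction it was 0.60 without the muscle-high arrays. With an array left out, Hoxa9 and Hoxa10 passed for Ing1 loss in all 12 fits, Hoxd8 in 6, Hoxc6 in 5 and Hoxa2 in 1. The block and the smaller set of arrays leave fewer degrees of freedom, and 1 of 31453 features passed without the muscle-high arrays. The columns were also uneven over genotypes, and the muscle-high arrays all lay on slide 1. Apart from that, the cause of these changes was not tested. Hoxd3 and Hoxd10 lay near background, where the arrays cannot resolve their level.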
